A study of Mus musculus with 3 samples.

Results

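The Hox genes encode homeodomain transcription factors and lie in 4 genomic clusters, Hoxa, Hoxb, Hoxc and Hoxd. The 38 members described here were taken by gene symbol from a table of 27985 genes in 9562 single cells. The choice used no rule on their levels, but earlier results of these data were known when it was made. The table holds UMI counts (unique molecular identifiers, each standing for 1 captured transcript). In GRCm38, the 10 Hoxa members span chr6:52162417-52260880 on the minus strand, and on the plus strand the 10 Hoxb members span chr11:96194316-96368256, the 9 Hoxc members chr15:102921103-103036852 and the 9 Hoxd members chr2:74668310-74765142.

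The cells came from a study of endothelial to haematopoietic transition, in which adult cardiac endothelium was exposed to stroma of the embryonic aorta-gonad-mesonephros (AGM), the site where blood arises from endothelium. Endothelial cells carrying a GFP reporter were sorted from hearts of female mice aged 12 to 16 weeks as CD31+VE-Cad+ and negative for CD41, CD45, PDGFRA and PDGFRB. They were profiled fresh or after co-aggregation with E11.5 AGM *Mesp1*der PSCs for 24, 48, 72 or 96 h, with IL-3, SCF and Flt3L at 100 ng/ml each, after which GFP+CD31+VE-Cad+PDGFRA- cells were sorted. *Mesp1*der PSCs are PDGFRA+ stromal cells marked by DsRed through Cre driven from *Mesp1*, a gene of early mesoderm. The deposited table ties no cell to 1 of the 3 pooled samples or to a time, so the groups compared below are the 7 clusters of cells named in the study's metadata.

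Hox genes of low paralogue number are switched on early and anteriorly in the embryo and those of high number later and posteriorly, and cells keep such a pattern in adult tissue. In blood, *Hoxa9*, *Hoxa7* and *Hoxb4* act in stem and progenitor cells and are turned down as cells mature. The proteins bind DNA together with TALE homeodomain cofactors of the Meis and Pbx families, and their loci are kept active by Kmt2a complexes and silent by Polycomb complexes.

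Clusters 0, 1 and 2 were endothelial by their markers, with 40.1, 41.6 and 30.2 UMIs per 10,000 summed over 6 endothelial genes, against 3.42 to 5.39 in the other clusters. Cluster 0 carried arterial genes (26.5 over 5 genes, 2.87 in cluster 2) and cluster 1 heart capillary genes (75.3 over 6 genes, 3 in cluster 2). Cluster 5 held macrophage (16.2) and granulocyte progenitor (8.41) genes and cluster 6 megakaryocyte genes (195). Cluster 3 had germ or pluripotent cell genes (39.6) and cluster 4 fibroblast or stromal genes (20.4), so that clusters 3 to 6 did not show the endothelial identity for which the cells were sorted. The clusters held from 239 cells (cluster 3) to 5396 cells (cluster 2), with median depths from 7875 UMIs per cell in cluster 1 to 36065.5 in cluster 5. Barcode suffixes named 3 libraries with median depths of 23651, 13440.5 and 38312 UMIs, which are given in that order below. Each library held cells of every cluster, but no label ties a library to a pooled sample. The grouping of cells also rests on the expression levels compared here. No difference between clusters was tested. Values carry exact 95% intervals, which cover counting error only.

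RefSeq promoters (GRCm38.p6, 250 bases before to 50 after a start site) were found for 22 of the 38 members, at 24 start sites. The promoters of *Hoxa7* and *Hoxa9*, prominent in cluster 5, of *Hoxb4*, the most abundant member, and of *Hoxb8*, a Hoxb gene with 3 motif matches, are shown 5′ to 3′. Capitals mark matches to TTTATNG, a core bound by posterior Hox and Cdx proteins.
Hoxa7, chr6:52218524-52218823, minus strand: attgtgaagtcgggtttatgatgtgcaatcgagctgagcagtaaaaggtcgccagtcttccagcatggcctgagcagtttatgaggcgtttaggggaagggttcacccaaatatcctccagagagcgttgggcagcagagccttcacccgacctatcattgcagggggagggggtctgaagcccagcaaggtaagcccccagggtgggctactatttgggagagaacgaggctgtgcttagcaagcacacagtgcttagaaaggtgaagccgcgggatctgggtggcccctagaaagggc
Hoxa9, chr6:52227321-52227620, minus strand: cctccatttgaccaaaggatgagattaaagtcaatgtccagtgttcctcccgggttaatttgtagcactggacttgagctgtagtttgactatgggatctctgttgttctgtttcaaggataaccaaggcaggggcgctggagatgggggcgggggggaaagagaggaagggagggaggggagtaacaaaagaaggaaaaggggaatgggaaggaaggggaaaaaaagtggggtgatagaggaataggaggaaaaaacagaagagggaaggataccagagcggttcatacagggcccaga
Hoxb4, chr11:96318017-96318316, plus strand: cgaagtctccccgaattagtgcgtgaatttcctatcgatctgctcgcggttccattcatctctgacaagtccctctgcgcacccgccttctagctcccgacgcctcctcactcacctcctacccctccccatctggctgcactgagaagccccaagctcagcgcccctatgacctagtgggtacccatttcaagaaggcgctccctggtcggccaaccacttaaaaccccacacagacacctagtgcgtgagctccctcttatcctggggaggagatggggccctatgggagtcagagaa
Hoxb8, chr11:96281655-96281954, plus strand: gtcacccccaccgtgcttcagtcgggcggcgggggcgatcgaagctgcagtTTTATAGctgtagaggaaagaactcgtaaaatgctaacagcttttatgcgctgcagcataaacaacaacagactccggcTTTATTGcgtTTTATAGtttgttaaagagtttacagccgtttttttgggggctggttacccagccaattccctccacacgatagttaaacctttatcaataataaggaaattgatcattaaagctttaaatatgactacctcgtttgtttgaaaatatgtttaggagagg
Searched on both strands, TTTATNG occurred in the promoters of *Hoxb8* and *Hoxd4*, 8.33% of the 24 promoters, against 10.9% of 32817 mouse promoters of the same length. The Meis core TGACAG was in 8.33% (*Hoxa2* and *Hoxa3*) against 19.2%. The Pbx–Hox core TGATTNAT was in 8.33% (*Hoxa2* and *Hoxd11*) against 3.22%, and the Runx core TGTGGT in 4.17% (*Hoxd10*) against 16.8%. No matches to different motifs overlapped in these promoters, and a match describes the letters only. The promoters held a median of 14.5 CpG dinucleotides against 7 over all mouse promoters, with 4 in *Hoxa9*, 9 in *Hoxa7*, 14 in *Hoxb4* and 13 in *Hoxb8*.

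Across all cells the 38 members gave 68071 UMIs, or 2.70 per 10,000 UMIs, and 78.8% of cells had at least 1. Hoxb genes supplied 44.3% of the Hox UMIs, Hoxa genes 36.8% and Hoxc genes 7.37%, the rest coming from Hoxd genes. The most abundant members were *Hoxb4* (7482 UMIs), *Hoxa5* (6679) and *Hoxa9* (6659). Of the 38 members, 29 had at least 100 UMIs and 9 fewer, namely *Hoxb1* (71), *Hoxd1* (71), *Hoxc11* (29), *Hoxd13* (25), *Hoxa13* (18), *Hoxd12* (12), *Hoxc12* (5), *Hoxb13* (1) and *Hoxc13* (1), which lie at the ends of their clusters. A UMI counts a molecule once whatever its length, so levels were compared between genes. In 11 members the annotated gene overlaps another member on the same strand (*Hoxa3* with *Hoxa4*, *Hoxa5* and *Hoxa6*, *Hoxc5* with *Hoxc6*, *Hoxc8*, *Hoxc9* and *Hoxc10*, and *Hoxd3* with *Hoxd4*), and the split of UMIs among these is uncertain.

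**Figure D1:**
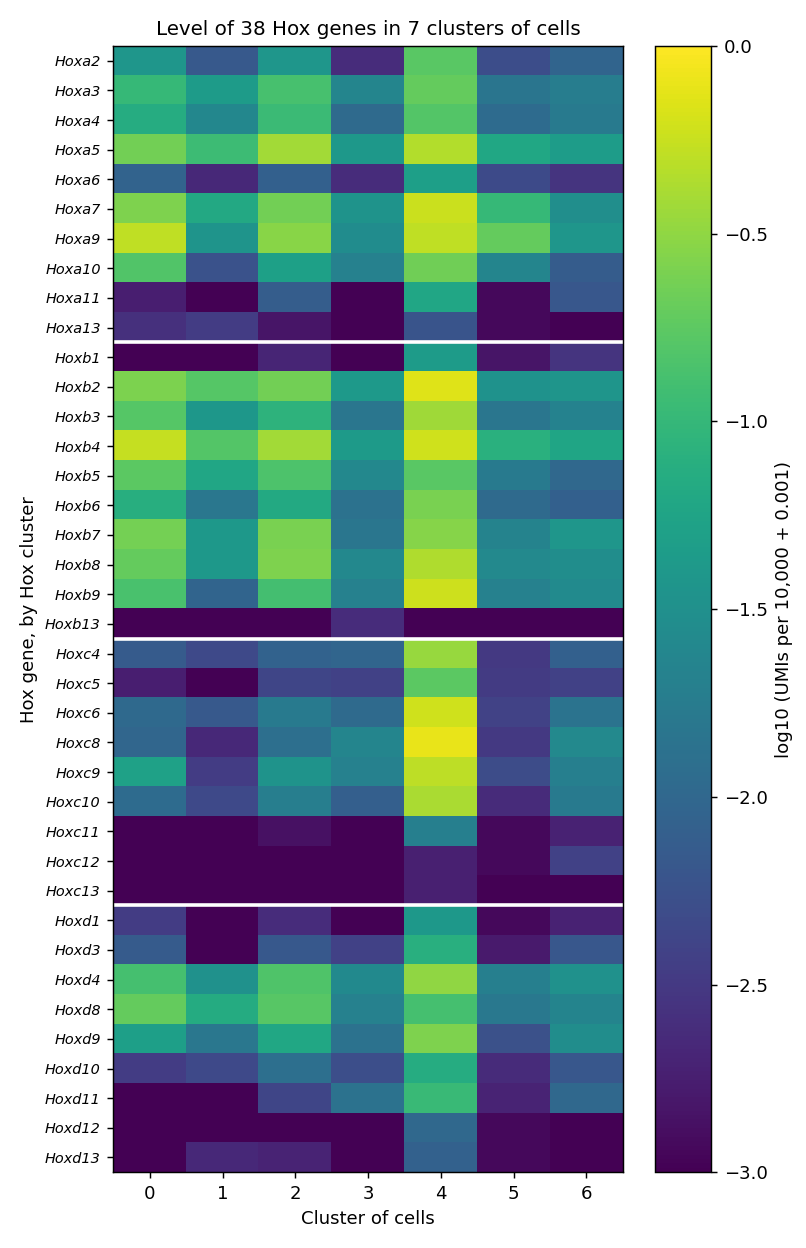
Heat map of the level of each Hox gene (rows, by Hox cluster and paralogue group) in the 7 clusters of cells (columns), in log10 of UMIs per 10,000 after adding 0.001. Hoxc genes are bright in cluster 4 alone, and *Hoxa9* and *Hoxa7* are the highest rows of cluster 5, at 0.192 and 0.101 UMIs per 10,000.

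The summed Hox level fell into 3 ranges. Stromal-like cluster 4 had the highest level, 9.72 UMIs per 10,000 (9.35, 10.6 and 9.54 by library). Arterial cluster 0 had 3.63 (3.62, 3.66 and 3.61) and cluster 2 had 3.28 (3.16, 3.33 and 3.35), so that the libraries of these clusters did not overlap although their levels were close. The other 4 clusters had less than 1 UMI per 10,000, cluster 1 standing at 0.943 (0.804, 1.43 and 0.808), cluster 5 at 0.683 (0.683, 0.792 and 0.61), cluster 6 at 0.577 (0.424, 0.479 and 0.89) and cluster 3 at 0.495 (0.4, 0.802 and 0.213). The libraries of cluster 1 lay just above those of cluster 5, while clusters 5, 6 and 3 overlapped. The order of these 4 clusters changed with the measure. As a mean over cells cluster 5 (0.873) was above cluster 1 (0.864), and with cells thinned to 5000 UMIs cluster 3 (0.921) was above both (0.889 and 0.891). The second library decided the level of cluster 3, which was 0.323 without it.

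**Figure D2:**
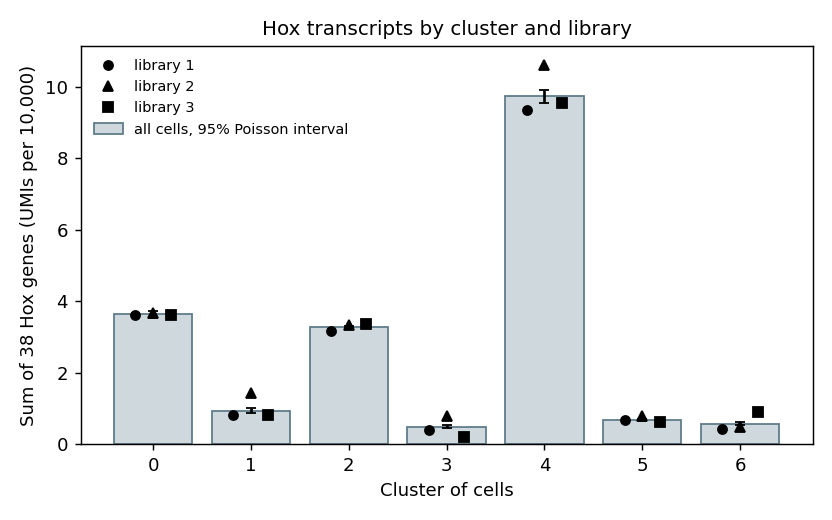
Summed level of the 38 Hox genes in UMIs per 10,000 (y axis) in the 7 clusters of cells (x axis), with bars for all cells, error bars for the exact 95% Poisson interval and symbols for the 3 libraries. Cluster 4 stands at 9.72, clusters 0 and 2 at 3.63 and 3.28, and the other clusters below 1.

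Shares of cells with a Hox UMI were compared at equal depth. With cells thinned to 5000 UMIs, leaving out 90 shallower cells (54 of cluster 1), 84% of cluster 4, 75.3% of cluster 0 and 73.3% of cluster 2 cells had a Hox UMI. Clusters 1, 3 and 5 had shares of 27.9%, 24.7% and 24.1%, and cluster 6 the lowest, 20.4% (95% interval 16 to 25.3%). At 20000 UMIs, which 73 cells of cluster 1 reached, the shares of clusters 0 to 6 were 97.2%, 63%, 97.1%, 22.9%, 93.6%, 34.6% and 28.6%, so that cluster 1 stood between the others and cluster 4 was no longer the highest. Unthinned, shares in the order of the clusters were 93%, 39%, 94.7%, 38.5%, 93.2%, 46.4% and 41.9%. Free RNA in droplets also gives UMIs to cells that do not express a gene, and no cluster here is known to lack Hox transcripts. Shares near the lowest one at each depth were therefore not read as expression. The lowest was that of cluster 6 at 5000 UMIs and that of cluster 3 at 20000 UMIs and unthinned. At 5000 UMIs the share of cluster 3 was 11.9% without the second library.

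Single cells held several Hox genes at once mainly in clusters 0, 2 and 4. Among cells thinned to 20000 UMIs, the median cell of cluster 4 had 15 Hox UMIs from 8 members, and 36.9% of its cells had 10 or more members. Medians were 7 UMIs from 5 members in cluster 0 and 6 UMIs from 4 members in cluster 2. The median cell had 1 Hox UMI in cluster 1 and 0 in clusters 3, 5 and 6, where single cells reached 19, 19 and 29 UMIs. Transcripts of all 4 Hox clusters were present together in 38.6% of cluster 4 cells, 6.94% of cluster 0 cells and 6.33% of cluster 2 cells.

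The make-up of the Hox transcripts differed between clusters of cells. Hoxc genes gave 29.4% of Hox UMIs in cluster 4 (27.8 to 31.5% by library), 2.39% in cluster 0 and 2.77% in cluster 2. They gave 14.2% in cluster 3, from 50 UMIs, and 15.0% in cluster 6, from 93 UMIs, but 1.77% in cluster 1 and 2.21% in cluster 5. Hoxa genes gave 59.6% in cluster 5 (54.5 to 63.1%), and no library of another cluster exceeded 41.6%. Paralogue groups 9 to 13 made up 25.4%, 7.94% and 18.5% of Hox UMIs in clusters 0, 1 and 2, and 36.2% in cluster 5.

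**Figure D3:**
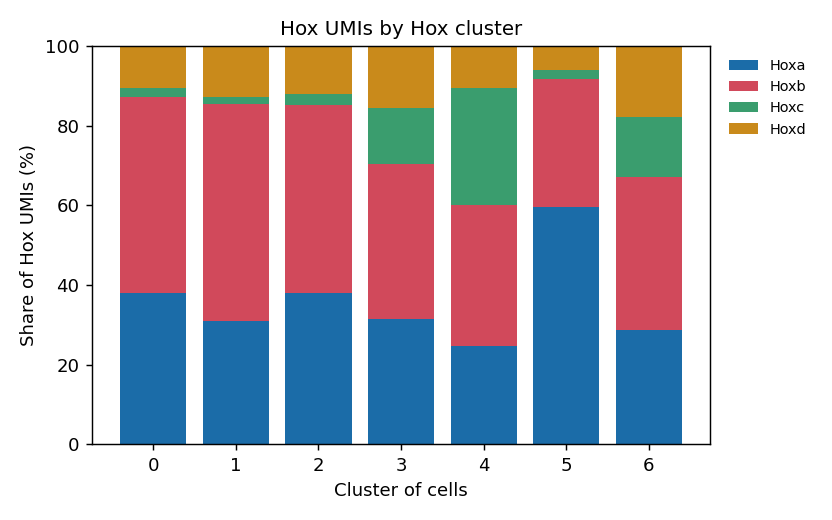
Share of Hox UMIs in percent (y axis) from the Hoxa, Hoxb, Hoxc and Hoxd genes (colours) in each cluster of cells (x axis). Hoxc genes take 29.4% in cluster 4 and 2.77% in cluster 2, and Hoxa genes take 59.6% in cluster 5.

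Among Hoxa genes, all levels being UMIs per 10,000 in clusters 0 to 6 in order, *Hoxa2*, a hindbrain gene, stood at 0.0365, 0.00594, 0.0362, 0.0014, 0.168, 0.00409 and 0.00836. *Hoxa3*, which patterns the pharyngeal arches, stood at 0.102, 0.0428, 0.134, 0.0224, 0.196, 0.0138 and 0.0176, and *Hoxa4* at 0.0715, 0.0238, 0.109, 0.00981, 0.157, 0.0103 and 0.0158. *Hoxa5*, a gene of lung and of mature endothelium, was the highest Hoxa gene of cluster 2, at 0.227, 0.112, 0.379, 0.0392, 0.45, 0.0601 and 0.0446. *Hoxa6* was low throughout, at 0.00794, 0.00119, 0.00733, 0.0014, 0.0482, 0.00377 and 0.00186. *Hoxa7*, a myeloid progenitor gene, stood at 0.261, 0.0642, 0.226, 0.0336, 0.574, 0.101 and 0.0297, and *Hoxa9*, its posterior neighbour and a driver of myeloid progenitor growth, at 0.516, 0.0345, 0.295, 0.028, 0.515, 0.192 and 0.0362. These 2 members had the highest levels of all Hox genes in cluster 5. *Hoxa10*, also active in myeloid progenitors, stood at 0.154, 0.00476, 0.0502, 0.0196, 0.224, 0.0221 and 0.0065, and *Hoxa11*, a limb and uterine gene, at 0.000794, 0, 0.00662, 0, 0.0583, 0.000164 and 0.00557.

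Hoxb genes summed to 1.78 in cluster 0 and 1.54 in cluster 2, but to 0.515 in cluster 1. *Hoxb2*, a hindbrain gene, stood at 0.256, 0.159, 0.228, 0.0406, 0.712, 0.0332 and 0.0353, *Hoxb3* at 0.16, 0.038, 0.087, 0.014, 0.376, 0.0141 and 0.0204 and *Hoxb4*, which promotes stem cell self-renewal when overexpressed, at 0.551, 0.158, 0.382, 0.042, 0.601, 0.0797 and 0.0566. *Hoxb5*, a gene of long-term haematopoietic stem cells, stood at 0.173, 0.0582, 0.146, 0.0238, 0.168, 0.0164 and 0.00928, with clusters 0 and 4 close together. *Hoxb6* stood at 0.0747, 0.0143, 0.0657, 0.0126, 0.25, 0.00982 and 0.00743, *Hoxb7* at 0.234, 0.0392, 0.249, 0.014, 0.287, 0.021 and 0.0362 and *Hoxb8*, which blocks myeloid differentiation when overexpressed, at 0.196, 0.0392, 0.26, 0.0238, 0.434, 0.025 and 0.0288. *Hoxb9*, a thoracic gene at the posterior end of the main Hoxb block, stood at 0.137, 0.00832, 0.127, 0.0196, 0.582, 0.0198 and 0.026. Each of these 8 members was lower in clusters 3, 5 and 6 than in clusters 0 and 2.

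Hoxc genes were low outside cluster 4. *Hoxc4* stood at 0.00636, 0.00357, 0.00769, 0.00841, 0.348, 0.00213 and 0.00743 and *Hoxc5* at 0.000794, 0, 0.0032, 0.0028, 0.176, 0.00229 and 0.00279. *Hoxc6* and *Hoxc8*, which pattern the thorax, stood at 0.00953, 0.00594, 0.0156, 0.00981, 0.598, 0.00295 and 0.013 and at 0.00874, 0.00119, 0.0115, 0.0224, 0.803, 0.00213 and 0.0251. *Hoxc9*, a thoracic gene, stood at 0.0508, 0.00238, 0.0341, 0.0196, 0.499, 0.00393 and 0.0186 and was the highest Hoxc gene of clusters 0 and 2. *Hoxc10*, a lumbar and hindlimb gene, stood at 0.0103, 0.00357, 0.0184, 0.00701, 0.413, 0.00131 and 0.0158.

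Of the Hoxd genes, *Hoxd3* stood at 0.00636, 0, 0.00576, 0.0028, 0.0777, 0.000655 and 0.00557 and *Hoxd4*, a cervical and hindbrain gene, at 0.13, 0.0321, 0.149, 0.0252, 0.315, 0.0185 and 0.0316. *Hoxd8* stood at 0.192, 0.0689, 0.167, 0.0196, 0.128, 0.0147 and 0.0214 and was the one Hoxd gene lower in cluster 4 than in clusters 0 and 2. *Hoxd9* stood at 0.0485, 0.0143, 0.0603, 0.0126, 0.263, 0.00458 and 0.0288, *Hoxd10* at 0.00238, 0.00357, 0.0113, 0.0042, 0.0718, 0.00131 and 0.00557 and *Hoxd11*, a forearm and kidney gene, at 0, 0, 0.0032, 0.0126, 0.107, 0.000982 and 0.00928. The last 3 had their highest level in cluster 4. A count of 0, as for *Hoxd11* in cluster 0, allows a level of up to 0.00238 there, up to 0.00357 in cluster 1 and up to 0.0042 in cluster 3 (3 UMIs of the total, a one-sided limit that lies below the two-sided exact interval).

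The first comparison set the haematopoietic clusters 5 and 6 beside the endothelial clusters 0, 1 and 2. The Hox sum was 0.667 against 3.18 UMIs per 10,000, a log2 ratio of -2.25 (-2.23, -2.16 and -2.33 by library). A gene was past the fold when its level differed at least 2-fold, its interval excluded equality, its 3 libraries had 1 sign and both groups together had 20 UMIs. Of 31 members with 20 UMIs, 26 were lower and 0 higher, where 21.9% of all genes were lower and 13.7% higher. The median log2 ratio was -2.46 over these members and -0.11 over all genes. The comparisons of clusters 3 and 4 below use the same endothelial clusters, and no overlap between them is read.

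*Hoxa9* was the least lowered of the abundant members, at 0.169 (0.173, 0.163 and 0.168) against 0.298 (0.257, 0.307 and 0.331), a log2 ratio of -0.82 that was not past the fold. *Hoxa7* followed at 0.0899 against 0.221, a log2 ratio of -1.29, and *Hoxa10* at -1.50. The groups did not overlap by library for any of these 3. Most UMIs of the endothelial clusters were those of cluster 2. Against cluster 1 alone, cluster 5 had more *Hoxa9* (0.192 against 0.0345), *Hoxa7* (0.101 against 0.0642, with libraries that overlapped) and *Hoxa10* (0.0221 against 0.00476). *Hoxd8* (-3.38), *Hoxb7* (-3.35), *Hoxb8* (-3.25) and *Hoxb5* (-3.23) were lowered most, and *Hoxb4* was at -2.33. *Hoxc8* (-0.94), *Hoxc5* (-0.27), *Hoxd11* (-0.32) and *Hoxb1* (-0.42) were not past the fold, and the intervals of the last 3 included equality.

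By Hox cluster, the log2 ratio of the sum was -1.70 for Hoxa (interval -1.76 to -1.64), -2.78 for Hoxb (-2.85 to -2.71), -1.75 for Hoxc (-1.98 to -1.53) and -2.92 for Hoxd (-3.08 to -2.77). By paralogue group it was -2.63 for groups 1 to 4, -2.53 for groups 5 to 8 and -1.37 for groups 9 to 13. *Hoxa9* gave 1212 of the 1677 UMIs of groups 9 to 13 in clusters 5 and 6. Among the other Hoxa and posterior genes, *Hoxa6* (-1.02) and *Hoxd11* (-0.32) also stood nearer 0, while *Hoxa3* (-3.15), *Hoxa5* (-2.61), *Hoxb9* (-2.55) and *Hoxd9* (-2.79) lay between *Hoxb4* (-2.33) and *Hoxb7* (-3.35).

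**Figure D4:**
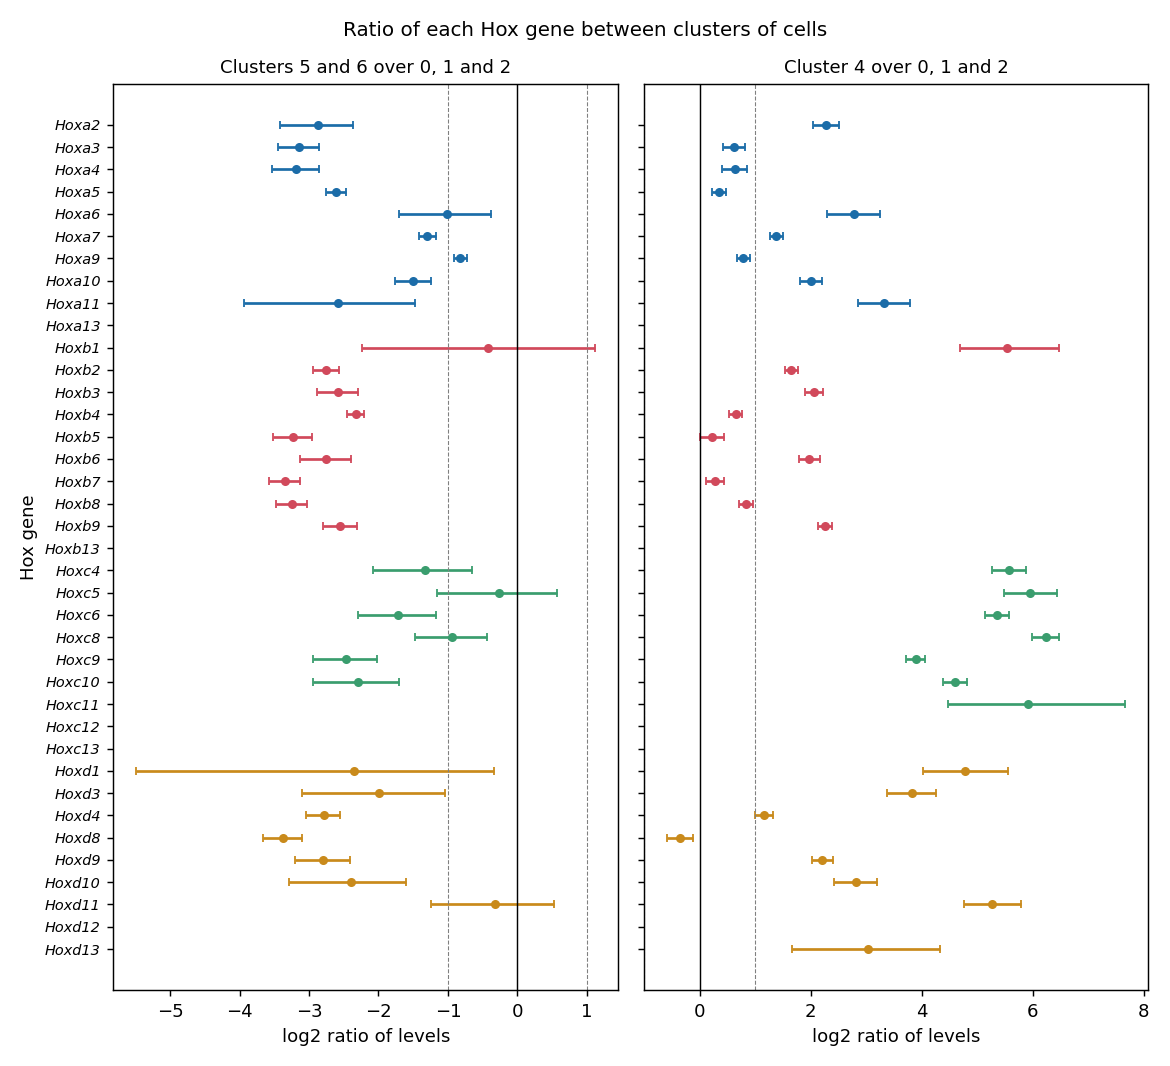
Log2 ratio of levels (x axis) of each Hox gene with enough UMIs (y axis, coloured by Hox cluster) for clusters 5 and 6 over clusters 0, 1 and 2 (left) and cluster 4 over clusters 0, 1 and 2 (right), with exact 95% intervals for counting error and dashed lines at a 2-fold difference. All points of the left panel lie below 0, *Hoxa9* at -0.82, and Hoxc genes reach furthest in the right panel, *Hoxc8* at 6.23.

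Clusters 5 and 6 were then set side by side. The log2 ratio of the sum, 0.24, changed sign between libraries (0.69, 0.73 and -0.55), so no order was read. Of 24 members with 20 UMIs, 3 were higher (12.5%) and 6 lower (25%) in cluster 5, where 12.4% and 9.19% of all genes were. The share higher was thus near that of all genes, and the 3 members were *Hoxa7*, *Hoxa9* and *Hoxa10*. *Hoxa9* was at 0.192 in cluster 5 (0.197, 0.193 and 0.186) and 0.0362 in cluster 6 (0.0306, 0.0355 and 0.0445), a log2 ratio of 2.41 (1.95 to 2.91) with no overlap of libraries. *Hoxa7* was at 0.101 (0.105, 0.0995 and 0.0965) and 0.0297 (0.0165, 0.0236 and 0.0541), a log2 ratio of 1.76, also without overlap. *Hoxa10* had a log2 ratio of 1.77, from 7 UMIs in cluster 6.

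Lower in cluster 5 were *Hoxc4* (-1.80), *Hoxc6* (-2.14), *Hoxc8* (-3.56), *Hoxc9* (-2.24), *Hoxc10* (-3.59) and *Hoxd9* (-2.65), each with 8 to 31 UMIs in cluster 6. The third library was the highest of cluster 6 for all 6, with *Hoxc8* at 0.0141, 0.0118 and 0.0541 by library, and 2 rather than 6 members were lower without it. With cells thinned to 5000 UMIs, or with a minimum of 100 UMIs, 0 members were lower, while 2 and 3 were higher. Without the third library the log2 ratio was -1.15 for *Hoxc6*, -2.24 for *Hoxc8*, -1.48 for *Hoxc9*, -2.11 for *Hoxc10*, -1.71 for *Hoxd9* and 2.38 for *Hoxa7*. Without the second it was -5.18 for *Hoxc8* and -4.24 for *Hoxc10*, and without the first 2.81 for *Hoxa10*. *Hoxb4* (0.49), *Hoxb2* (-0.09), *Hoxb8* (-0.20) and *Hoxa5* (0.43) were not past the fold.

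Within cluster 5, 325 cells with *Mpo* (myeloperoxidase of granulocyte precursors) and no *C1qb* were set beside 685 cells with *C1qb* (a complement gene of macrophages) and no *Mpo*, as read at 5000 UMIs per cell. The Hox sum was 0.705 (0.759, 0.803 and 0.582) in *Mpo* cells and 0.356 (0.376, 0.47 and 0.251) in *C1qb* cells, with no overlap of libraries. Of 17 members with 20 UMIs, 3 were higher and 1 lower in *Mpo* cells, where 6.43% and 9.15% of all genes were.

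Hoxa genes carried this difference. *Hoxa9* was at 0.257 in *Mpo* cells (0.316, 0.222 and 0.206) and 0.0348 in *C1qb* cells (0.0402, 0.0475 and 0.0195), a log2 ratio of 2.88. *Hoxa7* was at 0.138 (0.164, 0.133 and 0.111) and 0.0178 (0.0201, 0.0278 and 0.00804), a log2 ratio of 2.96. Neither gene overlapped between the sets. *Hoxa10* (log2 ratio 1.42) was also higher, but its ratio was 0.49 without the first library and 2.18 without the third. *Hoxd4* (-1.46, from 10 UMIs in *Mpo* cells) was lower, a call lost with thinned cells or a minimum of 100 UMIs. The Hoxb sum was 0.175 and 0.172, a log2 ratio of 0.03 (interval -0.21 to 0.25), and *Hoxb4* was at 0.0586 and 0.0693. The Hoxc and Hoxd sums went the other way, from 10 and 32 UMIs in *Mpo* cells. Their log2 ratios were -1.40 (-2.55 to -0.39) and -0.92 (-1.54 to -0.34).

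The 507 cells of cluster 5 with neither marker had the highest Hox sum, 1.12 (1.06, 1.26 and 1.1), with *Hoxa9* at 0.365, *Hoxa7* at 0.187 and *Hoxb4* at 0.112. They were also highest in the progenitor genes *Kit* (0.673, 0.506 in *Mpo* and 0.0412 in *C1qb* cells), *Mecom* (0.29, 0.102 and 0.0696) and *Hlf* (0.287, 0.215 and 0.00712), while *Cd34*, the other gene of that list, was highest in *Mpo* cells (2.3, 2.82 and 1.04). All 6 endothelial genes were also highest in them, among them *Cdh5* (0.849, 0.382 and 0.516), *Emcn* (0.753, 0.422 and 0.589) and *Egfl7* (2.65, 1.83 and 1.56). The part of these genes in the Hox levels was not tested.

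**Figure D5:**
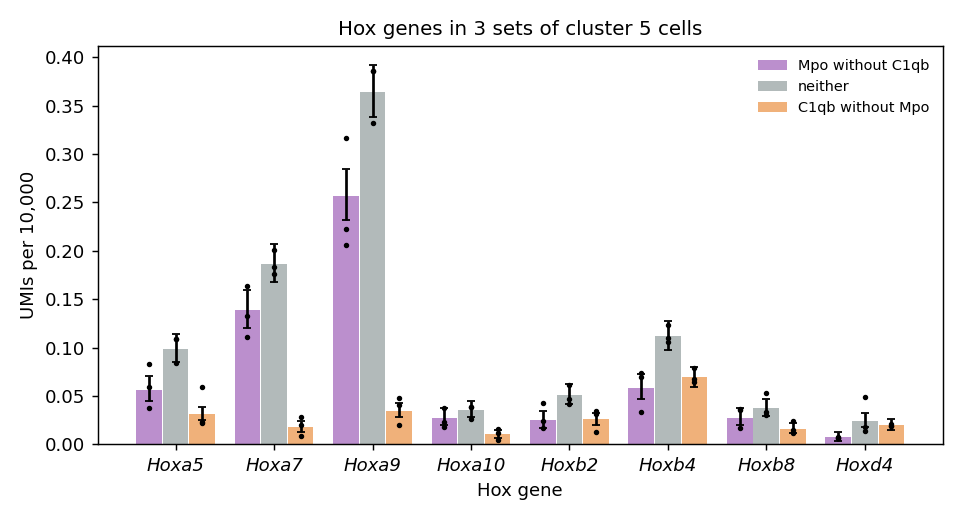
Levels of 8 Hox genes in UMIs per 10,000 (y axis) in cluster 5 cells with *Mpo* and no *C1qb*, with neither gene, and with *C1qb* and no *Mpo* (colours), with exact 95% Poisson intervals and dots for the 3 libraries. *Hoxa9* reads 0.257, 0.365 and 0.0348 in the 3 sets and *Hoxb4* 0.0586, 0.112 and 0.0693.

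In single cells thinned to 20000 UMIs, *Hoxa7* was detected in 55.2% and 2.66% of cluster 5 cells with and without *Hoxa9*, and 100 cells held both where the product of the shares gives 20.2. The shares were 54.2% and 15.7% in cluster 2, 59.6% and 10.3% in cluster 0 and 78% and 26.9% in cluster 4. For *Hoxb4*, on another chromosome, they were 29.3% and 8.83% in cluster 5, 47.4% and 50.9% in cluster 2, 62.6% and 61.5% in cluster 0 and 62.2% and 45.5% in cluster 4. *Hoxa7* was thus found more often with *Hoxa9* in clusters 0, 2, 4 and 5, and *Hoxa9* with *Hoxb4* more often than the product of the shares in cluster 5 (53 cells against 22) and cluster 4 (51 against 41.8). In cluster 4, *Hoxc6* was in 73.2% and 23.7% of cells with and without *Hoxc8*. Cells share their libraries, and these counts are a description.

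The second comparison set cluster 4, outside the haematopoietic path of the study, beside the endothelial clusters. The log2 ratio of the Hox sum was 1.61 (1.63, 1.69 and 1.55 by library). Of 33 members with 20 UMIs, 24 were higher and 0 lower, where 20.2% of all genes were higher and 7.45% lower. The median log2 ratio was 2.26 over these members and 0.23 over all genes. Cluster 4 was the highest of the 7 clusters for 33 of the 38 members, some with few UMIs in all cells, such as *Hoxc13* (1) and *Hoxd12* (12). No share of all genes stands beside this count. Markers of several cell types were also higher in cluster 4. They were 7 of 7 fibroblast or stromal genes (20.4 summed), 5 of 5 mural (9.33), 2 of 3 cardiomyocyte (3.3) and 4 of 4 epithelial genes (3.68). To these came 5 of 5 embryonic heart (1.32), 5 of 5 mesonephric (0.836) and 3 of 3 neural crest genes (0.661). Their part in the Hox levels was not tested.

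Hoxc genes differed most, all 7 with 20 UMIs being higher. *Hoxc8* was at 0.803 in cluster 4 (0.666, 0.988 and 0.823) and 0.0107 in the endothelium (0.0106, 0.0136 and 0.00831), a log2 ratio of 6.23 (5.99 to 6.47) with no overlap. It was the most abundant member of cluster 4. *Hoxc5* (5.95), *Hoxc4* (5.56), *Hoxc6* (5.36), *Hoxc10* (4.60) and *Hoxc9* (3.89) followed, and *Hoxc11* rested on 22 UMIs against 5. The log2 ratio of the Hoxc sum was 5.04, of Hoxd 1.41, of Hoxb 1.19 and of Hoxa 0.99.

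Members at the ends of the other Hox clusters were also higher in cluster 4, among them *Hoxb1* (5.54), a hindbrain gene, *Hoxd11* (5.27), *Hoxd1* (4.77), *Hoxd3* (3.82) and *Hoxa11* (3.32). Single libraries moved some of these log2 ratios, *Hoxb1* being at 4.87 without the first and 6.90 without the second, and *Hoxd11* at 5.99 without the third. The 9 members not past the fold were *Hoxd8* (-0.35), *Hoxb5* (0.23), *Hoxb7* (0.28), *Hoxa5* (0.35), *Hoxa3* (0.62), *Hoxa4* (0.63), *Hoxb4* (0.65), *Hoxa9* (0.79) and *Hoxb8* (0.84).

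Cluster 3 had a log2 ratio of the Hox sum of -2.69 against the endothelium (-2.92, -2.03 and -3.93 by library). The ratio ran from -3.28 to -2.40 with a library left out. It was smaller in size with thinned cells or as a mean over cells, as given in the closing section. Of 30 members with 20 UMIs, 18 were lower and 0 higher, where 22% of all genes were lower and 14.1% higher. It held 353 Hox UMIs in all, and its highest member was *Hoxb4* at 0.042. All 8 Hoxb genes were lower, but none of the 6 Hoxc genes, whose sum had a log2 ratio of -0.31 (-0.74 to 0.10). *Cdx2*, which acts upstream of Hox genes in the embryo, was at 0.235 in cluster 3 and at 0.00338 or less elsewhere.

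Clusters 0 and 2 differed in few members. Of 30 with 20 UMIs, 1 was higher and 2 lower in cluster 0, where 12.3% and 3.83% of all genes were. *Hoxa10* was at 0.154 in cluster 0 (0.162, 0.159 and 0.141) and 0.0502 in cluster 2 (0.0497, 0.0441 and 0.0559), a log2 ratio of 1.62 (1.38 to 1.85). *Hoxa9* was at 0.516 (0.493, 0.569 and 0.491) and 0.295 (0.255, 0.292 and 0.335), a log2 ratio of 0.81, which was not past the fold. Neither gene overlapped by library. *Hoxa5* went the other way, at 0.227 (0.2, 0.308 and 0.183) and 0.379 (0.383, 0.391 and 0.364), a log2 ratio of -0.74, also not past the fold. The lower members, *Hoxa11* and *Hoxd10*, rest on 1 and 3 UMIs in cluster 0. *Hoxa11* was at -0.60 without the third library, with its count of 0 in cluster 0 then set to 3 UMIs. The 2 clusters also differed in other markers. All 4 haematopoietic genes were higher in cluster 0 (0.519 against 0.0509 summed), as were 2 of 4 progenitor and 5 of 5 arterial genes. In these lists 0 genes were lower. Other lists were mixed, with 3 of 7 fibroblast or stromal genes higher and 1 lower, and 1 of 6 heart capillary genes higher and 1 lower. Of genes with 20 UMIs, 3 of 6 endothelial, 2 of 4 mural, 2 of 4 embryonic heart and 2 of 3 epithelial genes were also higher in cluster 0. Their part in the Hox levels was not tested.

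Cluster 1 had less Hox than cluster 2, and the 2 also differed in other markers. The log2 ratio of the sum was -1.80 (-1.97, -1.22 and -2.05 by library), and of 30 members with 20 UMIs 23 were lower and 0 higher, where 10.5% of all genes were lower and 20.6% higher. The log2 ratio was -1.30 for paralogue groups 1 to 4 (-1.45 to -1.15), -1.92 for groups 5 to 8 (-2.08 to -1.77) and -3.02 for groups 9 to 13 (-3.40 to -2.66), the sum of the posterior groups being lowered most. *Hoxb2* was at 0.159 in cluster 1 (0.144, 0.199 and 0.154) and 0.228 in cluster 2 (0.24, 0.22 and 0.223), a log2 ratio of -0.52 that was not past the fold. *Hoxb9* had a log2 ratio of -3.93, from 7 UMIs in cluster 1, and -5.90 without the first library. *Hoxa9* was at 0.0128, 0.129 and 0 in the 3 libraries of cluster 1, the second library alone holding a clear level. All 5 macrophage genes (summing to 4 against 0.0655) and the 4 mural genes with 20 UMIs (1.19 against 0.058 over the list of 5) were higher in cluster 1, as were 2 of 7 fibroblast or stromal genes (2.58 against 0.163) and 5 of 6 heart capillary genes. Of genes with 20 UMIs, 3 of 4 haematopoietic, 3 of 3 cardiomyocyte, 3 of 4 embryonic heart and 3 of 4 progenitor genes were higher there too. Their part in the Hox levels was not tested.

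Cells were also split by a UMI of *Runx1*, the transcription factor required for endothelial to haematopoietic transition, at 5000 UMIs per cell. In cluster 0, *Hoxa9* was at 1.29 in 54 *Runx1*-positive cells (1.1 to 1.51) and 0.433 in 668 negative cells (0.396 to 0.473). Their Hox sums were 4.61 (4.09, 5.02 and 5.04) and 3.52 (3.55, 3.52 and 3.5), without overlap, and their median depths before thinning 20597 and 13809.5 UMIs. In cluster 2, *Hoxa9* was at 0.281 in 87 positive and 0.295 in 5290 negative cells, and in cluster 5 at 0.25 in 643 and 0.151 in 925 cells. It was at 0.0602 and 0.0334 in cluster 1, from 4 and 25 UMIs, and at 0.0265 and 0.0486 in cluster 6, from 16 and 23 UMIs, with overlapping intervals in both clusters. The Hox sum was lower in the positive cells of cluster 2, at 2.68 (2.39, 3.14 and 2.28) against 3.28 (3.16, 3.33 and 3.36), without overlap, with median depths of 11154 and 22665 UMIs. In cluster 1 it was 0.406 (0.346, 0.878 and 0.0944) in 45 positive and 0.99 (0.856, 1.47 and 0.836) in 700 negative cells, and the libraries overlapped. In cluster 5 it was 0.762 (0.768, 0.868 and 0.681) and 0.626 (0.626, 0.733 and 0.556), and the libraries overlapped. In cluster 6 the Hox sum was 0.288 (0.235, 0.271 and 0.363) in 167 positive cells. It was 0.946 (0.608, 0.777 and 1.76) in 142 negative cells, without overlap, the third library being the highest. Whether these splits differ between clusters was not tested.

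Cells with and without a Hox UMI were then compared within clusters. At 5000 UMIs, genes higher in the positive cells made up 0.655, 0.944, 0.885, 1.55, 3.19, 10.9 and 10.1% of all genes in clusters 0 to 6 and genes lower 0.419, 2.07, 0.379, 1.05, 3.37, 2.6 and 1.25%. At 20000 UMIs, in clusters 2, 3, 5 and 6, they made up 0.712, 6.16, 11.3 and 7.74% and 0.632, 0.955, 1.13 and 0.714%. In clusters 3 and 6 at 5000 UMIs the positive cells were shallower before thinning (medians of 8867 and 11384 UMIs against 32579 and 34870.5), and so were those of cluster 5 (26972.5 against 38242.5). In cluster 5 at 20000 UMIs, 388 positive and 733 negative cells had median depths of 45320 and 45111 UMIs. Among the 10 most raised genes were *Mycn* (0.664 against 0.0281), a proliferation factor, and the imprinted genes *Cdkn1c* (1.72 against 0.117), *Igf2* (4.37 against 0.316) and *H19* (3.66 against 0.396). Among the 10 most lowered were *Camp* (0.0249 against 0.666), *Stfa1* (0.602 against 2.47) and *Mpo* (1.66 against 4.12), genes of granulocytes and their precursors. Of the 8 genes on the neutrophil and granulocyte progenitor lists, *Camp* and *Mpo* were lower and the other 6 not past the fold, among them *S100a8* (3.64 against 3.69), *S100a9* (3.89 against 3.92), *Elane* (0.335 against 0.414) and *Ctsg* (0.0823 against 0.0344). All 4 progenitor genes were higher (4.35 against 1.38 summed).

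All 6 endothelial genes were higher in these Hox-positive cells (7.34 against 2.19 summed, *Cdh5* 1.21 against 0.167), as were all 5 arterial genes (1.07 against 0.163). Genes of other cell types were also higher, among them *Acta2* (0.356 against 0.0145), *Krt18* (0.232 against 0.0669) and *Wt1* (0.0127 against 0.00137). Other genes of their lists, such as *Pdgfrb*, *Krt8* and *Pax8*, were not past the fold. In cluster 6, with 58 positive and 145 negative cells, 4 of 6 endothelial genes were higher (8.23 against 3.27 summed) and 5 megakaryocyte genes summed to 211 against 193. The heart capillary genes *Fabp4* (2.99 against 0.409), *Cd36*, *Aqp1* and *Tcf15* were also higher there, while *Rgcc* and *Meox2* were not past the fold. So were the fibroblast or stromal genes *Col1a1* (0.0847 against 0.00443), *Col1a2* (0.234 against 0.0163) and *Col3a1* (0.295 against 0.00739). The rest of that list, *Pdgfra*, *Postn*, *Dcn* and *Tcf21*, was not past the fold. In cluster 3, with 30 positive and 101 negative cells, 5 of 6 endothelial genes were higher (7.1 against 2.56 summed, *Cdh5* 1.15 against 0.231). *Col1a2* (0.119 against 0.00448) and *Wt1* (0.188 against 0.00672) were higher there too, while the other genes of their lists were not past the fold. What free RNA or 2 cells in 1 droplet contribute was not tested.

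In cluster 2, the 89 cells without a Hox UMI at 20000 UMIs had more *Fabp4* (2.24 against 1.07), a fatty acid carrier of heart capillaries, *Igfbp7* (0.824 against 0.318) and the heat shock gene *Hspa1a* (1.34 against 0.0711) than 2929 positive cells. The other 5 heart capillary genes were not past the fold there. In cluster 4 at 5000 UMIs, 82 negative cells had more *Gsn* (5.93 against 0.403), *Dcn* (5.4 against 0.609), a fibroblast matrix gene, *Tbx20* (1.69 against 0.117), a heart transcription factor, and *Tnnt2* (1.22 against 0.19), cardiac troponin T, than 430 positive cells. The positive cells had more *Aldh1a2* (0.872 against 0.091), which makes retinoic acid, *Crabp1* (3.15 against 0.974) and the neurofilament genes *Nefl* (0.805 against 0.0428) and *Nefm* (1.42 against 0.177). In cluster 1, 537 negative cells had more of the inflammatory genes *Ccl4* (3 against 0.396), *Cxcl3* (1.9 against 0.175) and *Il1a* (3.06 against 0.509) than 208 positive cells, which had more *Igf2* (3.85 against 1.79).

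Of 9 TALE cofactors, 2 were higher and 2 lower in clusters 5 and 6 than in the endothelium, near the shares of all genes (13.7% and 21.9%). *Meis1*, the partner of *Hoxa9* in myeloid cells, was at 0.504 in clusters 5 and 6 and 0.0983 in the endothelium, with 0.356 in cluster 5 and 1.34 in cluster 6. *Meis2* was at 0.08 against 0.523. *Pbx4* (log2 ratio 1.36) was also higher and *Pknox2* (-2.23, from 7 UMIs) also lower. Within cluster 5, *Meis1* was at 0.554 in *Mpo* cells, 0.544 in cells with neither marker and 0.111 in *C1qb* cells. Of 8 cofactors with 20 UMIs, 3 were higher and 2 lower in *Mpo* than in *C1qb* cells, both above the shares of all genes given earlier for that comparison. In cluster 0, 4 of 9 cofactors were higher than in cluster 2 (12.3% of all genes), with *Meis1* at 0.471 against 0.068 and *Meis2* at 1.77 against 0.422, and in cluster 4, 6 of 9 were higher than in the endothelium (20.2% of all genes), *Meis2* reaching 3.74.

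None of the 5 Kmt2a complex genes was past the fold in clusters 5 and 6, 4 or 3 against the endothelium, and *Men1* (0.2 against 0.4) and *Psip1* (0.85 against 1.98) were lower in cluster 1 than 2 (10.5% of all genes). Of 14 Polycomb genes, *Cbx7* (log2 ratio 1.44) was higher and *Cbx2* (-2.01) and *Phc2* (-1.28) lower in clusters 5 and 6. This was below the shares of all genes (13.7% and 21.9%). In cluster 3, 3 were higher and 4 lower, near the 14.1% and 22% of all genes. Log2 ratios there were 5.41 for *Cbx7* and 2.45 for *Phc1*. In cluster 1 over 2, 4 were higher and 3 lower, where 20.6% and 10.5% of all genes were. Log2 ratios were 3.56 for *Cbx7* and -2.09 for *Ezh2*. Of 8 noncoding RNAs of the Hox clusters with 20 UMIs, 7 were lower in clusters 5 and 6, where 21.9% of all genes were, such as *Hotairm1* at the anterior end of Hoxa (0.0161 against 0.143). In cluster 4, 2 of the 8 were higher, where 20.2% of all genes were, namely *Hoxb5os* and *Haglr* (log2 ratio 1.48). *Hoxd3os1* stood at 0.0304 against 0.0379. *Hoxb5os* was at 0.204 in cluster 4 and at 0.0158 or less elsewhere. Of the genes that flank the Hox clusters, 8 had 20 UMIs. In clusters 5 and 6, *Skap1* (log2 ratio 2.24) was higher and *Evx1* (-3.29) and *Calcoco1* (-1.23) lower, counts near the 13.7% and 21.9% of all genes. The median log2 ratio was 0.03 over the 8. Of 7 retinoic acid genes, 5 were lower in clusters 5 and 6, against 21.9% of all genes. These were the receptors *Rara* (-1.56), *Rarb* (-3.07) and *Rarg* (-2.28) and *Cyp26a1* (-3.84) and *Cyp26b1* (-2.79), which degrade retinoic acid. *Aldh1a2* was at 0.748 in cluster 4 and at 0.0701 or less elsewhere.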

How the data were processed

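Single-cell libraries of 3 pooled samples were processed by the authors with Cell Ranger 3.1.0 and Seurat 3.1.5, as the submitters' processing notes name them, and UMI counts per gene and cell were deposited with a table of cell clusters. The deposited counts were used as they stood, and the normalised table was not used. Of 27998 rows, 27722 took a symbol from GENCODE M21 and 276 kept their identifier, and rows of 11 symbols were summed. The members and lists were chosen with earlier results of these data known. Levels are summed UMIs per 10,000 with exact Poisson intervals, shares carry Clopper–Pearson intervals and log2 ratios exact binomial intervals, all at 95%. A fold of 2, a minimum of 20 UMIs and 1 sign in all libraries defined a gene past the fold. Cells were thinned to 5000 UMIs (seed 1) and, as chosen after seeing the data, to 20000. All 29 members with 100 UMIs are named, with examples of the list genes past the fold (the rule set out to give all of them) and, for Hox-positive cells, genes from the 10 largest ratios in each direction (at least 0.5 UMIs per 10,000). Singlets were sorted and no doublet caller was run, but the 5% of cells with most UMIs were left out as an alternative. In all, 26 cells carried a barcode found in more than 1 library. Other alternatives were a mean over cells, folds of 1.5 and 4, a minimum of 100 UMIs and each library left out. The scripts were tested on simulated data. Computation was done in Python 3.11.15 with pandas 2.3.3, scipy 1.17.1 and numpy 2.4.6, and plots in matplotlib 3.10.9.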

Additional observations from a re-analysis of the deposited data

How the results depend on the processing

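No setting turned the direction of a Hox sum ratio, and no left-out library that of a member past the fold. Members not past the fold did turn, among them *Hoxb2* (-0.68 to 0.76) and *Hoxb8* (-0.46 to 0.097) for cluster 5 over 6 and *Hoxb4* (-0.57 to 0.011) for *Mpo* over *C1qb* cells with a library left out. Of the re-computed sums, ratios of sums, shares and counts, 171 stayed within the spread of the libraries, or a count within 1.5 times, and 92 did not, and of single members' ratios with a library left out, 515 stayed within their interval and 70 did not. Thinned to 5000 UMIs, the Hox sum moved to 3.49, 0.921, 10.5, 0.889 and 0.712 in clusters 0, 3, 4, 5 and 6. As a mean over cells it moved to 0.864, 0.833, 10.3, 0.873 and 0.688 in clusters 1, 3, 4, 5 and 6, so that the order of clusters 1, 3, 5 and 6 depends on these settings. Log2 ratios moved to -1.85 (mean over cells), -1.83 (thinned) and -2.16 (top 5% of UMI counts left out) for clusters 5 and 6, to 1.76 and 1.79 for cluster 4 and to -1.87 and -1.73 for cluster 3 (mean over cells, thinned), to 0.086 for cluster 0 over 2 (thinned), to -1.93 for cluster 1 over 2 (mean over cells) and to 1.25 for *Mpo* over *C1qb* cells (top 5% left out, which also gave 0.725 for cluster 5). Members lower in cluster 5 than 6 numbered 0 with a minimum of 100 UMIs and 0 when thinned, and 1 was higher at a fold of 4. For cluster 0 over 2, 1 was lower with 100 UMIs, 0 when thinned and 4 at a fold of 1.5, with 3 higher at 1.5 and 0 at 4. For cluster 1 over 2, 14 were lower at a fold of 4. For *Mpo* over *C1qb* cells, 0 were lower with 100 UMIs, at a fold of 4 and when thinned, and 5 were higher at a fold of 1.5.

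The share of cells at 2 or more Hox UMIs was 46.8, 10.5, 44.6, 9.62, 72.1, 11.3 and 9.06% in clusters 0 to 6, as deposited 93.0, 39.0, 94.7, 38.5, 93.2, 46.4 and 41.9%, and at 20000 UMIs 97.2, 63.0, 97.1, 22.9, 93.6, 34.6 and 28.6%. Genes higher in Hox-positive cells numbered 168 in cluster 1 at 2 UMIs and 619 in cluster 3 at 20000 UMIs, and genes lower 87 in cluster 2, 147 in cluster 5 and 75 in cluster 6 at 20000 UMIs and 649 in cluster 5 at 2 UMIs. Clusters 0, 1 and 4 had fewer than 30 Hox-negative cells at 20000 UMIs and were not compared there. The cause of these shifts was not tested.

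Leaving out each library in turn, the Hox sum ran from 3.62 to 3.64, 0.805 to 1.06, 3.24 to 3.34, 0.323 to 0.595, 9.44 to 9.97, 0.649 to 0.723 and 0.448 to 0.677 in clusters 0 to 6. The log2 ratio ran from -2.28 to -2.21 for clusters 5 and 6, 0.013 to 0.69 for 5 over 6, 1.59 to 1.64 for cluster 4, -3.28 to -2.40 for cluster 3, 0.12 to 0.17 for 0 over 2, -2.01 to -1.65 for 1 over 2 and 0.91 to 1.09 for *Mpo* over *C1qb* cells. Lower members numbered 2 to 6 for 5 over 6, 17 to 21 for 1 over 2 and 1 to 2 for *Mpo* over *C1qb* cells, and higher members 1 to 2 for 0 over 2, 0 to 1 for cluster 3 and 3 to 4 for 5 over 6. Shares at 5000 UMIs ran from 74.0 to 77.4%, 25.3 to 31.5%, 72.2 to 74.0%, 11.9 to 29.4%, 83.2 to 84.7%, 19.3 to 27.8% and 15.3 to 23.9% in clusters 0 to 6. No paired test over the libraries was run, although each of the 3 libraries held cells of all 7 clusters. Ratios within each library stand beside the Hox sums.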

Other observations

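The methods give female hearts as the source of the endothelium, and Hox levels in a cluster are those of its cells whatever their origin. Among cells thinned to 20000 UMIs, a UMI of the Y-linked genes *Ddx3y*, *Eif2s3y*, *Kdm5d* or *Uty* was found in 55.6, 89.0, 51.5, 56.5, 50.2, 56.2 and 55.2% of cells in clusters 0 to 6. *Xist*, transcribed from the inactive X chromosome, was found in 56.0, 28.8, 46.0, 22.9, 53.4, 43.3 and 42.9%. Both were found in 15.3, 17.8, 6.59, 6.87, 9.24, 7.49 and 8.37% of cells, fewer in each cluster than the product of the shares, which ran from 12.9% in cluster 3 to 31.1% in cluster 0. The origin of the cells was not tested.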
